A study of Mus musculus with 6 samples.

Results

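Cadherins and protocadherins are transmembrane adhesion proteins, and 32 of the 18193 genes measured by 1 or more uniquely named probe sets belong to the set described here. Members were all genes whose platform symbol is Cdh or Pcdh followed by digits alone, which 70 probe sets report. Where a gene had several probe sets, the brightest on average over all 6 arrays stands for it. The cerebellum of wild-type mice was compared with that of transgenic mice carrying daDREAM, with 3 biological replicates of each genotype, each on its own Affymetrix mouse genome array. DREAM, encoded by Kcnip3, is a transcriptional repressor that calcium releases from DNA, and daDREAM is a mutant form that represses irrespective of calcium. Which promoter drives the transgene, and the age, sex and strain of the mice, were not stated in the labels used here. The tissue was dissected and frozen, and its RNA comes from all cerebellar cell types at once, so fewer cells of a type and less RNA per cell cannot be told apart.

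Classical cadherins bind their like on neighbouring cells through extracellular repeats that calcium ions hold rigid, and their tails bind catenins, which link them to actin. Type I and type II classical cadherins differ in the first repeat, and in brain their combinations mark nuclei, layers and synaptic partners. The non-clustered protocadherins, of which the delta-1 and delta-2 groups are the largest, have other tails and do not bind beta-catenin, and they act in axon growth, dendrite arbors and circuit assembly. In the cerebellum, N-cadherin joins granule cells and glia, and several type II cadherins and delta protocadherins are expressed in parasagittal stripes or in single layers.

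Promoter sequences of 20 of the 32 genes are held in the RefSeq table of GRCm38.p6, in 23 windows that run from 250 bases before to 50 bases after a start. DREAM binds DNA at downstream regulatory elements whose core is GTCA, so that core was searched on both strands. It is a short motif that lies inside the cAMP response element TGACGTCA and inside many other sequences. GTCA was found in 18 of the 23 member windows, 78.3%, and in 85.2% of all 32851 windows. The median was 1 match in a member window and 2 in a window of the genome. TGACGTCA was found in 0 of the 23 member windows and in 1.79% of all windows. The E-box CACCTG, to which the cadherin repressors of the Snail and Zeb families bind, was found in 5 of 23, 21.7%, against 20.2% of all. These 5 are not 5 genes: they are the several windows of Cdh7 and those of Pcdh7 and Pcdh15. Genes with several windows, such as Cdh7 and Pcdh9, were likewise counted more than once for GTCA. These are matches of letters, not measured binding. A window reaches only 50 bases past the start, so elements further downstream were not searched. In 6 windows the start is the outer edge of the RefSeq gene. The 250 bases before the start are shown for the members among these with the most GTCA cores and for the member that differed by at least 0.3 log2 units between genotypes. They are written 5′ to 3′ on the strand of the gene, with GTCA or its reverse complement TGAC in capitals.
Cdh15, chr8:122848124-122848373, + strand: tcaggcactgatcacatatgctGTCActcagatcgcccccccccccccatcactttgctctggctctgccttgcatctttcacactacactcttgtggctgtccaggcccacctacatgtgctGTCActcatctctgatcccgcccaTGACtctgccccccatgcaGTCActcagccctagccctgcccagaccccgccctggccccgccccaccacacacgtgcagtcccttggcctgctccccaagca
Pcdh17, chr14:84443313-84443562, + strand: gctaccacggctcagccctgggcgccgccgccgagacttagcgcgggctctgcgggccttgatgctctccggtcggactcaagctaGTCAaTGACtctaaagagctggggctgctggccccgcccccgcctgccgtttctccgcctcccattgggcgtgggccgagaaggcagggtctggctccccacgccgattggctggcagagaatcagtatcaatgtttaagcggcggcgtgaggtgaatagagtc
Pcdh20, chr14:88471397-88471646, - strand: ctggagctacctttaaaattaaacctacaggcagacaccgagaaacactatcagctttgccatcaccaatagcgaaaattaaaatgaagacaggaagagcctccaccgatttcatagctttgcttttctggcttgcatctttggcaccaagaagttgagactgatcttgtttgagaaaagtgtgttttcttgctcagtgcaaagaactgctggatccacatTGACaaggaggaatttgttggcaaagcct
The whole windows, with the 50 bases after the start that are not shown, held 5 matches for Cdh15, 4 for Pcdh17 and 1 for Pcdh20. The expression differences of these genes, given below, were 0.04, 0.02 and -0.40 in that order.

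The labels and the tissue were checked first. Kcnip3 was measured by 2 probe sets, which differed by 0.10 (95% interval -0.27 to 0.46) and 0.11 (-0.21 to 0.42), and it is not known whether they detect the transgene. The granule cell gene Gabra6 and the Purkinje cell gene Pcp2 were bright on every array, at means of 12.02 and 12.44. The hybridization controls, RNA added in fixed amounts, stood at 8.99, 8.99 and 9.48 on wild-type arrays 1 to 3 and at 9.47, 10.14 and 10.47 on daDREAM arrays 1 to 3. The level of these controls thus runs partly with genotype.

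No cadherin or protocadherin passed the test between genotypes. With limma and Benjamini-Hochberg adjustment over all 45037 probe sets, 0 of the 32 genes reached an adjusted p under 0.05, as did 0% of all genes, and the smallest adjusted p of any member was 0.998. At an unadjusted p under 0.05 there were also 0 of 32, where 1.42% of all 18193 genes had one. The arrays of the genotypes overlapped at all 32 genes, where 5.59% of all genes showed no overlap. Differences are daDREAM minus wild type on the log2 scale, and 19 of 32 members were above 0 and 13 below, where 51.2% of all genes were above 0. The median over the members was 0.025, beside 0.01 over all genes. The interval of a member reached a median of 0.40 to either side, a factor of 1.32. That interval is for 1 gene without adjustment, and passing the adjusted threshold would take a larger change. Even Sostdc1, a choroid plexus marker that differed by 1.07, had a limma adjusted p of 0.998.

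**Figure D1:**
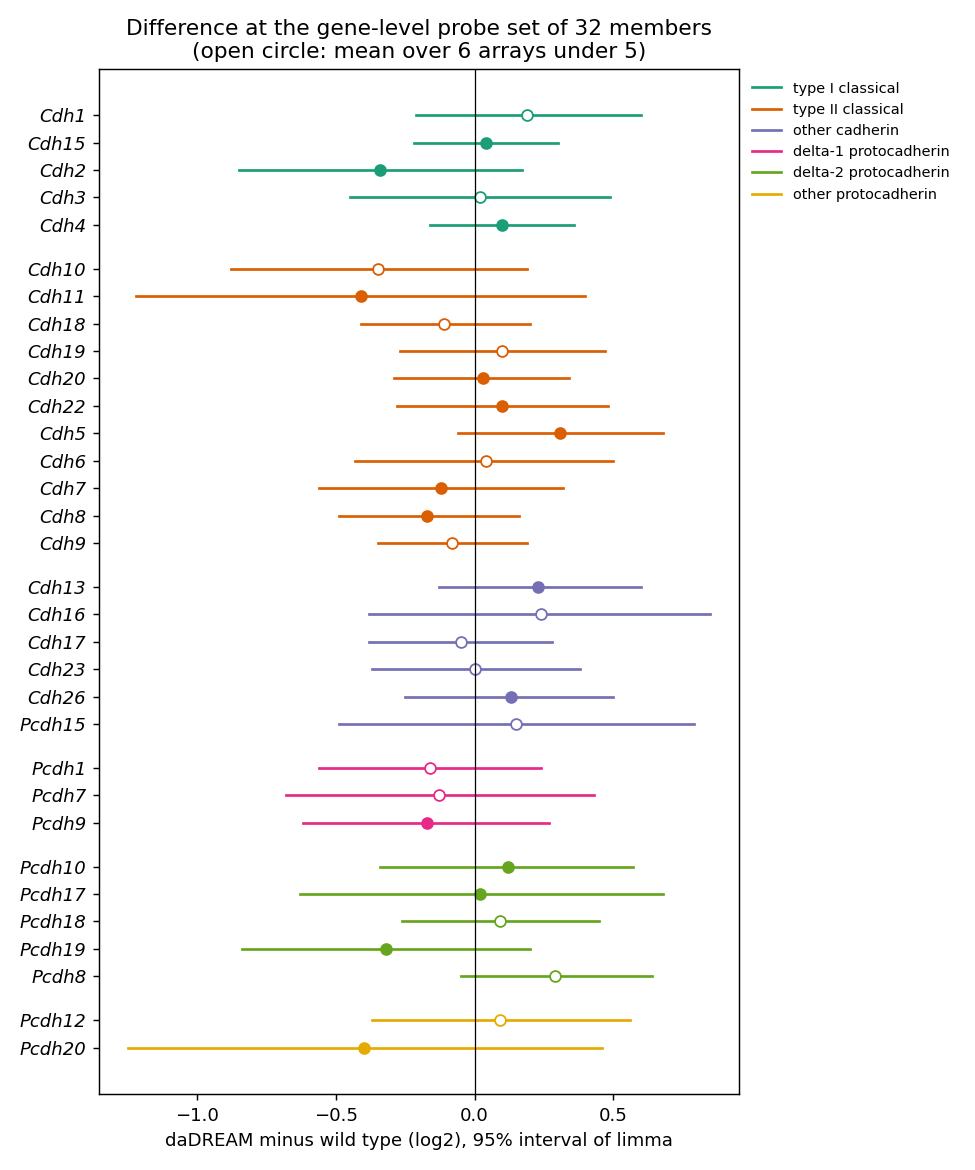
Difference between daDREAM and wild type (log2, x axis) for the 32 member genes (y axis, coloured by role), with the 95% interval of limma as a line and open circles for genes with a mean under 5. Every interval crosses 0, and the point estimates run from -0.41 for Cdh11 to 0.31 for Cdh5.

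The sizes of the differences were less even than their signs. Of the 32 members, 6 differed by at least 0.3 in size, 18.8%, where 5.77% of all genes did. Among the 16 members with a mean of at least 5 there were 5, or 31.2%, against 6.98% of all genes that bright. Cdh2, Cdh10, Cdh11, Pcdh19 and Pcdh20 lay lower in daDREAM by that much, and 2.98% of all genes did. Cdh5 lay higher, as did 2.78% of all genes. Among the brighter members 4 of 16 lay lower by that much and 1 of 16 higher, where 4.22% and 2.76% of all genes that bright did. This limit was chosen after the values were seen. The members also varied more within a genotype: their median SD was 0.25, beside 0.19 over all genes. In 25 of 32 members, 78.1%, the SD was larger among daDREAM arrays, as it was in 71.4% of all genes.

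Type I classical cadherins were represented by 5 genes. Cdh2 encodes N-cadherin, the main cadherin of neurons and of radial and Bergmann glia. Its log2 level was 8.97, 9.05 and 8.71 in wild type and 9.06, 8.46 and 8.18 in daDREAM, in order of replicate. daDREAM replicates 2 and 3 lay below every wild-type array, while daDREAM replicate 1 was the highest of the 6. The means were 8.91 ± 0.18 and 8.57 ± 0.45 (SD, n = 3), which gives -0.34 (95% interval -0.85 to 0.17, limma adjusted p = 0.998). The other Cdh2 probe set differed by -0.02.

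Cdh4, which encodes R-cadherin, was among the steadiest members. It stood at 7.71, 7.68 and 7.64 in wild type and at 7.79, 7.67 and 7.87 in daDREAM. The daDREAM array at 7.67 lay within the wild-type arrays and the others lay just above them. The difference was 0.10 (95% interval -0.16 to 0.36), and the 3 Cdh4 probe sets differed by 0.10 to 0.12. Cdh15 encodes M-cadherin, a cadherin of muscle that cerebellar granule cells also express, and it stood at 7.84 ± 0.07 and 7.88 ± 0.08 (n = 3), a difference of 0.04. The epithelial cadherins Cdh1 (E-cadherin) and Cdh3 (P-cadherin) were dim, with means of 3.84 and 4.93, and differed by 0.19 and 0.02. The sign of Cdh3 turned after median centring, to -0.01.

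**Figure D2:**
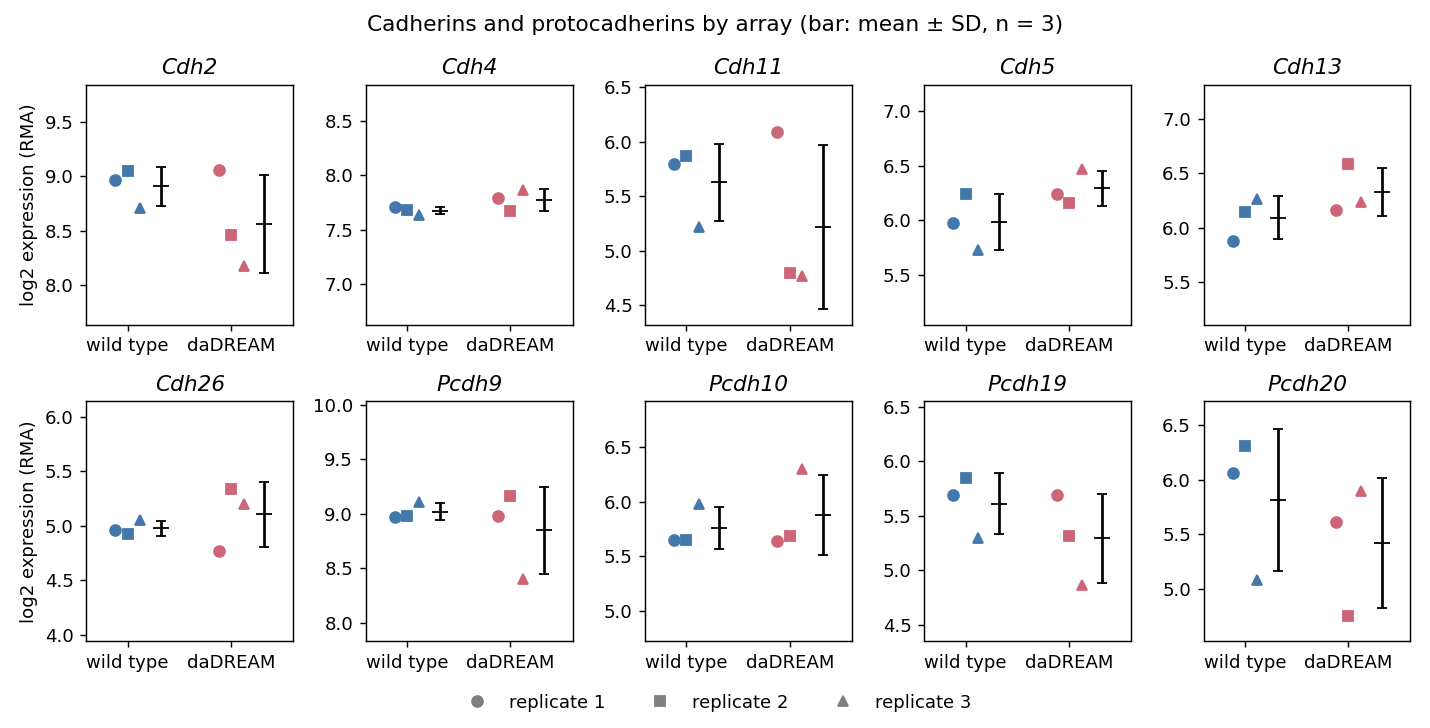
Log2 expression (y axis) of 10 members on each wild-type and daDREAM array (x axis), with 1 symbol per replicate number and the mean ± SD beside it, on axes of equal length. In Cdh2 and Cdh11, daDREAM replicate 1 lies at 9.06 and 6.09 and the other daDREAM arrays lie below all wild-type arrays.

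Type II classical cadherins formed the largest group, with 11 genes, of which 5 were above 0 and 6 below. Cdh11, a cadherin of mesenchymal cells that is also found in brain, had the lowest difference of all members. Its level was 5.79, 5.87 and 5.22 in wild type and 6.09, 4.79 and 4.77 in daDREAM. The daDREAM arrays therefore held both the highest and the lowest values of the 6. The means were 5.63 ± 0.35 and 5.22 ± 0.76 (n = 3), which gives -0.41 (95% interval -1.22 to 0.40). Its dimmer probe set differed by 0.16.

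Cdh5 encodes VE-cadherin, the cadherin of endothelial junctions, and had the highest difference. It stood at 5.97, 6.24 and 5.73 in wild type and at 6.24, 6.16 and 6.47 in daDREAM. The lowest daDREAM array, replicate 2, lay below wild-type replicate 2, so the groups overlapped. The difference was 0.31 (95% interval -0.06 to 0.68, limma adjusted p = 0.998), and the dimmer probe set of Cdh5 differed by -0.01. Of 11 other endothelial markers 3 were higher in daDREAM, and their mean level ran from 6.46 to 6.62 on wild-type arrays and from 6.41 to 6.58 on daDREAM arrays. Pecam1, a defining endothelial marker, differed by -0.11. The VEGF receptor gene Flt1 was the lowest of the 11 at -0.35 and Slco1a4 the highest at 0.26, and their median was -0.04. Pcdh12, an endothelial protocadherin, was dim at a mean of 4.27 and differed by 0.09.

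Cdh7 was measured by 3 probe sets that gave unlike answers. The gene-level probe set stood at 6.93 ± 0.36 and 6.81 ± 0.17 (n = 3), a difference of -0.12, and 1444736_at differed by 0.06. Probe set 1460045_at, described because its value stood out, read 7.41, 7.47 and 6.12 in wild type and 6.15, 5.45 and 6.55 in daDREAM. Wild-type replicates 1 and 2 were high, and wild-type replicate 3 lay below 2 of the daDREAM arrays. Its difference was -0.95 (95% interval -1.86 to -0.04). This was the single member probe set of 70 with an unadjusted limma p under 0.05 (adjusted p = 0.998), where 1.81% of all probe sets had one and 0.706% had one and lay lower in daDREAM.

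The remaining type II genes were close to 0 or dim. Cdh22 stood at 8.36 ± 0.16 and 8.46 ± 0.27 (n = 3), a difference of 0.10, and Cdh20 differed by 0.03. Cdh8, whose product is found at synapses, differed by -0.17, and its 2 dimmer probe sets by 0.05 and 0.23. Cdh10 had a mean of 4.75 and differed by -0.35, while its other 3 probe sets differed by 0.25, 0.20 and 0.25. The dimmest of them, 1446399_at, showed no overlap between genotypes, as did 1449637_at of Cdh4, which read 3.32 to 3.42 in wild type and 3.45 to 3.59 in daDREAM. These were 2 of 70 member probe sets, both higher in daDREAM, where 6.01% of all probe sets showed no overlap and 3.75% did so on the higher side. Cdh6, Cdh9, Cdh18 and Cdh19 had means under 5 and differed by 0.04, -0.08, -0.11 and 0.10.

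Cadherins outside the classical types, with the tip-link protocadherin Pcdh15 counted here, had 5 of 6 genes above 0. Cdh13 encodes T-cadherin, which is anchored in the membrane by a lipid and has no cytoplasmic tail. It read 5.88, 6.14 and 6.26 in wild type and 6.16, 6.58 and 6.24 in daDREAM. Replicate 2 of daDREAM was the highest array, and the others lay among the wild-type arrays. The difference was 0.23 (95% interval -0.13 to 0.60), and the brighter of the other Cdh13 probe sets differed by 0.14. Cdh26 read 4.96, 4.92 and 5.05 in wild type and 4.77, 5.34 and 5.20 in daDREAM, with daDREAM arrays on either side of wild type, and differed by 0.13. Cdh16 and Cdh17, cadherins of kidney and of intestine, and Cdh23 and Pcdh15, which together form the tip links of hair cells, had means under 5. Their differences were 0.24, -0.05, 0.00 and 0.15.

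All 3 delta-1 protocadherins that the naming rule admits lay below 0. The delta-1 gene Pcdh11x falls outside the rule, was dim at a mean of 4.26 and differed by 0.05. Pcdh9, a neuronal adhesion protein, read 8.97, 8.98 and 9.11 in wild type and 8.98, 9.16 and 8.40 in daDREAM. daDREAM replicate 3 alone lay below wild type. The means were 9.02 ± 0.08 and 8.85 ± 0.40 (n = 3), a difference of -0.17 (95% interval -0.62 to 0.27). Its other probe sets differed by -0.30 and 0.25, the latter of opposite sign at a mean of 6.60. Pcdh7 and Pcdh1 were dim, with means of 4.78 and 4.51, and differed by -0.13 and -0.16. The other Pcdh7 probe sets differed by 0.25 and -0.02. Without daDREAM replicate 3 the difference of Pcdh9 was 0.05.

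Of the 5 delta-2 protocadherins, 4 lay above 0. Pcdh19, an X-linked gene mutated in an epilepsy of girls, was the exception. It read 5.69, 5.85 and 5.30 in wild type and 5.69, 5.32 and 4.87 in daDREAM. Replicate 3 was the lowest array in both genotypes, and the daDREAM arrays reached from below the wild-type range to its middle. The difference was -0.32 (95% interval -0.84 to 0.20), and the other probe sets differed by -0.03 and 0.01.

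Pcdh10, which acts in axon guidance and synapse elimination, read 5.65, 5.65 and 5.98 in wild type and 5.64, 5.69 and 6.30 in daDREAM. Apart from the third array of each genotype the values were nearly level. The difference was 0.12 (95% interval -0.34 to 0.57), while the 5 dimmer probe sets gave 0.15, 0.08, -0.01, -0.15 and 0.03. Pcdh17, which acts at presynaptic sites, read 5.98, 6.22 and 5.81 in wild type and 6.72, 5.85 and 5.51 in daDREAM, a difference of 0.02 with the daDREAM arrays on either side of wild type. Pcdh18 differed by 0.09. Pcdh8, whose rat counterpart arcadlin is induced by synaptic activity, was dim at 3.34 ± 0.04 and 3.63 ± 0.26 (n = 3) and differed by 0.29 (95% interval -0.05 to 0.64).

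Pcdh20, whose upstream sequence is shown above, had the widest interval of the members. It read 6.06, 6.31 and 5.08 in wild type and 5.61, 4.75 and 5.90 in daDREAM. The lowest wild-type array lay under 2 of the daDREAM arrays. The means were 5.82 ± 0.65 and 5.42 ± 0.60 (n = 3), which gives -0.40 (95% interval -1.25 to 0.46). Its dimmer probe set differed by -0.10.

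**Figure D3:**
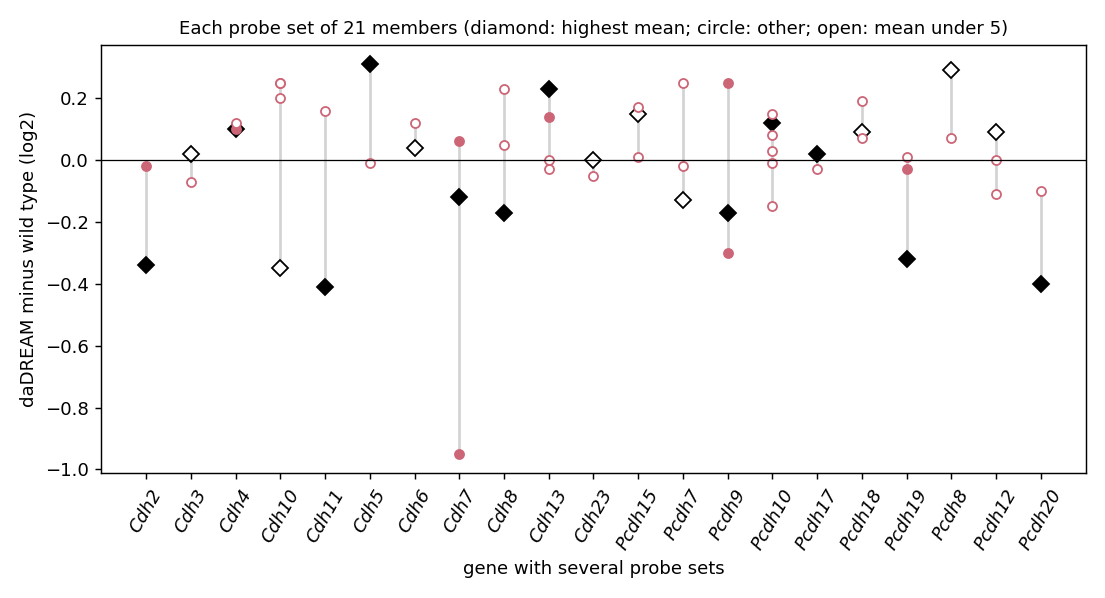
Difference between daDREAM and wild type (log2, y axis) for each probe set of the 21 members that have several (x axis), with a diamond for the probe set of highest mean, circles for the others and open symbols for means under 5. Cdh7 has the widest gap, 1.01, and its lowest point at -0.95, while the 3 points of Cdh4 lie within 0.02.

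Across the members, 21 genes had 2 to 6 probe sets. In Cdh2, Cdh4, Cdh6, Pcdh8, Pcdh15, Pcdh18 and Pcdh20 they shared a sign, and in the remaining genes signs were mixed. Mixed signs with a gap of at least 0.3 were found in Cdh5, Cdh7, Cdh8, Cdh10, Cdh11, Pcdh7, Pcdh9, Pcdh10 and Pcdh19. Of the 70 probe sets 46 had a mean under 5, where a probe set cannot be told from background without a detection call. Averaging all probe sets of a gene turned the sign of 7 members, Cdh10 among them, to 0.09.

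A wide contrast lay inside the daDREAM group, and it was looked at after the values were seen. daDREAM replicate 3 minus daDREAM replicate 1 ran from -1.32 in Cdh11 to 1.16 in Pcdh15. Differences of 2 single arrays spread more than the differences of 3-array means given above, so the sizes are not directly comparable. Between single arrays of the 2 genotypes the gap reached 1.56 in Pcdh20, from 6.31 in wild-type replicate 2 to 4.75 in daDREAM replicate 2. Replicate 1 was the highest of the 6 arrays and replicate 3 the lowest in 7 members, Cdh1, Cdh2, Cdh11, Cdh19, Cdh22, Pcdh7 and Pcdh17. The reverse was seen in 5, Cdh6, Cdh16, Pcdh10, Pcdh12 and Pcdh15. Together these were 12 of 32, 37.5%, beside 27.5% of all genes. Among members with a mean of at least 5 it was 5 of 16, 31.2%, beside 29.1% of all genes that bright. The difference between these shares was not tested.

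**Figure D4:**
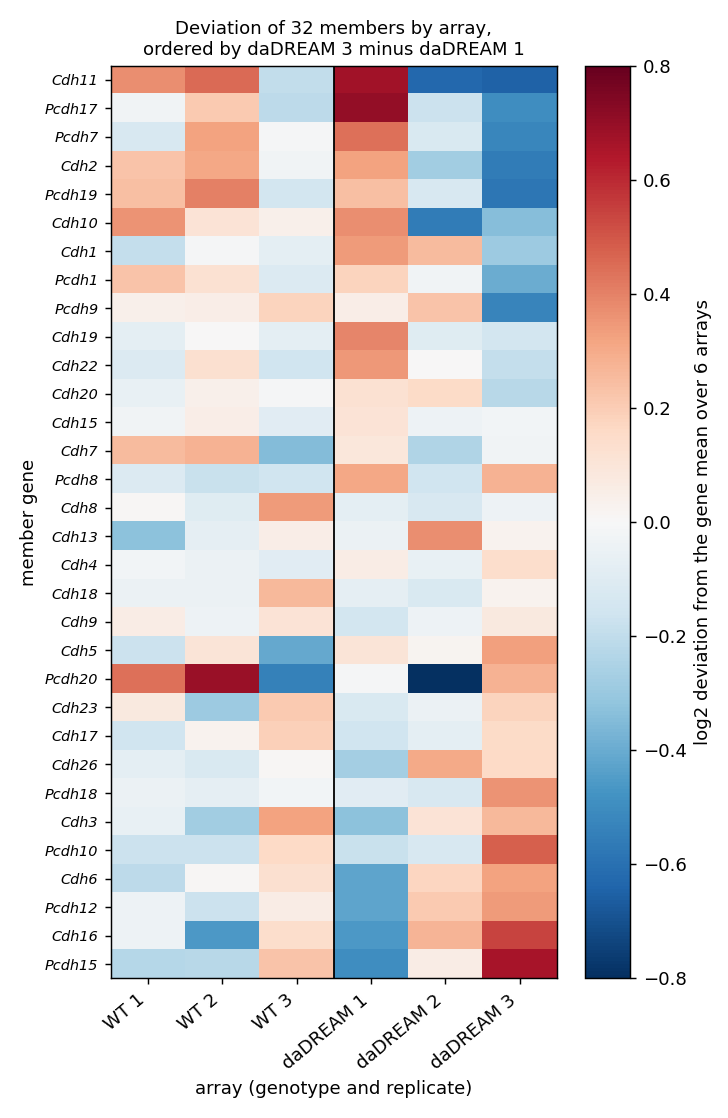
Deviation of each of the 32 members (rows) on each of the 6 arrays (columns) from its own mean, in log2 units, coloured from blue for lower to red for higher and cut at 0.8. Rows are ordered by daDREAM replicate 3 minus daDREAM replicate 1, from -1.32 in Cdh11 at the top to 1.16 in Pcdh15 at the bottom.

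Leaving out 1 array changed the counts. Without daDREAM replicate 1, 7 of 32 members, 21.9%, had an unadjusted limma p under 0.05, and so did 16.5% of all genes. These were Cdh11 at -0.85, Cdh10 at -0.62, Cdh2 at -0.59, Pcdh19 at -0.52, Cdh16 at 0.53, Pcdh12 at 0.33 and Cdh26 at 0.29. Their adjusted p ran from 0.215 to 0.292, so 0 passed. Without wild-type replicate 2 the count was 1, Cdh5 at 0.44, beside 0.561% of all genes. Without daDREAM replicate 2 it was 1, Pcdh8 at 0.45, beside 0.588%, and without daDREAM replicate 3 it was 1, Cdh1 at 0.39, beside 1.94%. Members without overlap between genotypes numbered 8 without daDREAM replicate 1 (34.0% of all genes), 4 without daDREAM replicate 3 (13.5%) and 3 without wild-type replicate 3 (18.1%). There were 2 without wild-type replicate 2 (9.72%) and 2 without daDREAM replicate 2 (9.54%). In each of these 5 cases the members' share was below that of all genes.

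When the level of the hybridization controls entered the fit as a covariate, 18 of the 32 members changed sign. Cdh11 then differed by 0.78, Cdh2 by 0.37 and Pcdh19 by 0.40, and 0 passed after adjustment. At an unadjusted limma p under 0.05 there were 13 of the 32 member genes. The background here is of all probe sets and not of genes, and 23.2% of those had one.

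Genes that work with the cadherins were measured as 4 lists. With limma 0 of their 42 measured genes passed at an adjusted p under 0.05, as did 0% of all genes. At an unadjusted limma p under 0.05 there were also 0, where 1.42% of all genes had one, so few would be looked for among 42. Among catenins and junction adaptors 5 of 11 lay above 0, with a median of -0.03. Jup, which encodes plakoglobin, differed by 0.28 (95% interval -0.03 to 0.58), and its arrays did not overlap. Ctnnd1, which encodes p120-catenin, differed by 0.18, and Ctnnb1, which encodes beta-catenin, by -0.08. Among genes that shed or cleave cadherins 6 of 7 lay below 0, with a median of -0.20. Adam9, a membrane metalloprotease gene, differed by -0.27 (95% interval -0.97 to 0.43) and Aph1a, a gamma-secretase subunit gene, by -0.24. Adam10, which encodes the main sheddase of N-cadherin, read 8.75, 8.90 and 8.38 in wild type and 8.92, 8.43 and 8.0 in daDREAM. As with Cdh2, daDREAM replicate 1 was the highest array and daDREAM replicate 3 the lowest. That order was seen in 2477 of the 11734 genes with a mean of at least 5. Whether Adam10 and Cdh2 vary together was not tested. Psen2, a presenilin gene, differed by -0.20, and its arrays did not overlap.

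The atypical cadherin superfamily, large or distant relatives with cadherin repeats, had 10 of 16 genes above 0 and a median of 0.04. Pcdh11x, a delta-1 protocadherin, was counted in this list. Clstn2, a calsyntenin of synapses, differed by -0.25 and Fat1, a giant protocadherin, by -0.19. Regulators that repress cadherin genes elsewhere had 5 of 8 above 0 and a median of 0.12. Tcf3 differed by 0.27 (95% interval -0.12 to 0.66) and Snai1, which encodes Snail, by 0.21. Zeb1 differed by -0.12, and its arrays did not overlap. These were 3 of 42 partner genes without overlap, where 5.59% of all genes had none. The median over all genes was 0.01.

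Some cadherins are known from cells other than the neurons and glia of the cerebellum, and markers of such cells were read on the same arrays. The marker lists were chosen with earlier results of these data known, so their counts are description only and do not test a list. With limma 0 genes of any marker list passed at an adjusted p under 0.05. At an unadjusted p there were 6 of 14 choroid plexus markers, 2 of 14 meningeal fibroblast markers, 1 of 11 microglia markers and 0 of 10 ependymal markers, where 1.42% of all genes had one. All of these were higher in daDREAM. Lower in daDREAM at such a p were 1 of 11 endothelial markers, Flt1 at -0.35, and 1 of 9 oligodendrocyte markers, Ugt8a at -0.35. The remaining lists had 0. Choroid plexus markers were higher in daDREAM in 13 of 14 genes, with array means of 5.65 to 5.90 in wild type and 6.0 to 6.28 in daDREAM. Meningeal fibroblast markers were higher in 11 of 14, with 6.28 to 6.29 and 6.32 to 6.49. Only Igf2, at 0.32, and Igfbp2, at 0.58, differed by at least 0.3 in size. They were also the 2 with an unadjusted limma p under 0.05. The other 3 of the 14 lay lower, Foxc1 at -0.28 among them. Without Igf2 and Igfbp2 the array means of this list overlap, as daDREAM replicate 3 then falls below wild-type replicates 1 and 3. Microglia markers were higher in 9 of 11, with 6.10 to 6.18 and 6.28 to 6.32, and ependymal markers in 7 of 10, with 4.57 to 4.68 and 4.64 to 4.77. The array means of the ependymal markers overlapped between genotypes, and those of the choroid plexus, microglia and full fibroblast lists did not. Ttr, the defining choroid plexus marker, differed by 0.43 and Dcn, that of fibroblasts, by 0.04. Their part in the values of Cdh1, Cdh5 and Cdh11 was not tested. Array means of granule cell, Purkinje cell, Bergmann glia, oligodendrocyte, precursor and blood markers overlapped between genotypes. Granule cell markers ran from 10.21 to 10.32 in wild type and from 10.14 to 10.36 in daDREAM, Purkinje cell markers from 10.75 to 10.88 and from 10.71 to 10.88, and Bergmann glia and astrocyte markers from 9.75 to 9.95 and from 9.68 to 9.95.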

How the data were processed

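Cerebellar RNA of 3 wild-type and 3 daDREAM mice was hybridised to 6 arrays. What the authors deposited is a log2 level for each probe set, made with RMA in the affy package per the submitters' processing notes (versions not given in the sources used here). The values ran from 2.46 to 13.8 and carry no detection call, and RMA compresses differences of dim probe sets. Of 45101 probe sets, 64 controls were left out of the tests. Genotypes and replicate numbers came from the sample titles, and symbols from the platform annotation. Probe sets with several symbols (932) were not named.

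The genotypes were compared in R 4.3.3 by limma 3.58.1 (lmFit, eBayes, 2-sided, Benjamini-Hochberg over 45037 probe sets, threshold 0.05), with 95% intervals, and the procedure was tested on simulated data. A mean under 5 was called dim. With 3 arrays per genotype the number of arrays limits the precision, and p-values measure the spread between these samples. The members and lists were chosen with earlier results of these data known. By rule, every member is named. Per-array values are given for members past an unadjusted p of 0.05 or without overlap, and for the 2 largest differences per role at a mean of at least 5. In each list of partner genes the 2 largest differences at that mean are named, and other genes were chosen after their values were seen. The motif search of proteins was not run here.

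Alternatives were the replicate number as a block, a mean of at least 5, median centring, renewed quantile normalization, a robust trended prior, gene-by-gene array weights, the hybridization control level as a covariate, each array left out, a gene's probe sets averaged, and no probe sets that match several transcripts.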

Additional observations from a re-analysis of the deposited data

How the results depend on the processing

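No member passed the adjusted threshold under any alternative except gene-by-gene array weights, in which daDREAM replicate 2 carried 44.1% and daDREAM replicate 1 carried 2.27% of the weight. With those weights 9 of 32 members passed and 13 had an unadjusted p under 0.05, as did 7510 and 15787 of all 45037 probe sets. With the hybridization controls as a covariate 13 members had an unadjusted p under 0.05, and the median member difference was 0.0852. Without 1 array the count at an adjusted p under 0.05 was 0, that at an unadjusted p ran from 0 to 7, that of members without overlap from 0 to 8, and the median from -0.0592 to 0.0425, against 0, 0 and 0.025. Members without overlap numbered 1 after renewed quantile normalization (8.32% of all genes), 1 after median centring (5.15%) and 2 with each gene's probe sets averaged (6.12%). Deviations of same-numbered arrays correlated at 0.12, -0.28 and 0.32, and those of differently numbered arrays from -0.43 to 0.49. With 3 arrays per genotype this cannot tell whether the replicate numbers pair the arrays. With the replicate block 0 members passed at either p, all 32 kept their sign, and 1093 probe sets had an unadjusted p under 0.05 against 817.

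Signs of differences that had not passed turned as follows. Renewed quantile normalization gave 0.00 for Cdh3, -0.02 for Cdh23 and -0.01 for Pcdh17, and median centring -0.01 for Cdh3, 0.00 for Cdh20, -0.02 for Cdh23 and 0.00 for Pcdh17. Array weights gave -0.02 for Cdh15, -0.01 for Cdh4, -0.02 for Cdh19, 0.01 for Cdh17, -0.03 for Cdh23, 0.11 for Pcdh9, -0.16 for Pcdh17 and -0.04 for Pcdh18. The hybridization covariate gave 0.37 for Cdh2, -0.58 for Cdh3, 0.28 for Cdh10, 0.78 for Cdh11, -0.57 for Cdh6, 0.25 for Cdh7, -0.61 for Cdh16, -0.32 for Cdh23, -0.25 for Cdh26, -0.79 for Pcdh15, 0.32 for Pcdh1, 0.55 for Pcdh7, 0.08 for Pcdh9, -0.40 for Pcdh10, -0.17 for Pcdh18, 0.40 for Pcdh19, -0.50 for Pcdh12, 0.02 for Pcdh20, 0.77 for Adam9, 0.41 for Clstn2, 0.30 for Fat1 and -0.17 for Snai1. Averaging each gene's probe sets gave -0.03 for Cdh3, 0.09 for Cdh10, 0.04 for Cdh8, -0.02 for Cdh23, 0.03 for Pcdh7, 0.00 for Pcdh17, -0.01 for Pcdh12 and -0.03 for Ctnnd1. Without probe sets that match several transcripts Ctnnd1 was at -0.01 and Aph1a at 0.22. Leaving out 1 array gave ranges that cross 0 for Cdh3 (-0.12 to 0.19), Cdh6 (-0.11 to 0.26), Cdh15 (-0.01 to 0.08), Cdh17 (-0.14 to 0.04), Cdh19 (-0.07 to 0.20), Cdh20 (-0.04 to 0.14), Cdh22 (-0.05 to 0.22), Cdh23 (-0.14 to 0.11), Pcdh7 (-0.38 to 0.10), Pcdh9 (-0.33 to 0.05), Pcdh10 (-0.10 to 0.23), Pcdh12 (-0.06 to 0.33), Pcdh15 (-0.15 to 0.43), Pcdh17 (-0.32 to 0.28) and Pcdh18 (-0.06 to 0.18). Apart from the construction of each alternative, the cause was not tested. Members with a mean under 5 are limited by background.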

Other observations

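The clustered protocadherins, neuronal surface proteins encoded in gene arrays, fall outside the naming rule and were looked at after the other values were seen. Of 23 with a probe set of their own, 6 had a mean of at least 5, 7 lay above 0 and 16 below, and the median difference was -0.05. With limma 0 passed at an adjusted or an unadjusted p under 0.05, where 1.42% of all genes had an unadjusted p that low. The arrays of 1 of the 23 did not overlap, beside 5.59% of all genes.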
